A study of Mus musculus with 2 samples.

Results

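The defensins are small antimicrobial peptides with a cysteine-rich fold, and the mouse carries them as multigene families that arose by repeated local duplication. Binding of CTCF, the zinc finger protein of insulators and chromatin loop anchors, was mapped around those genes in newborn mouse stomach. The members are the protein-coding genes of GENCODE release M21 (mm10) whose symbols start with Defa (alpha defensins) or Defb (beta defensins). There were 64 of them among 21853 protein-coding genes, 22 Defa and 42 Defb. They were chosen by name and position and not by a peak value, though earlier results of these data were known.

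Stomach tissue of mice of the strain B6NCrl was taken at postnatal day 0, and CTCF-bound DNA was recovered with an antibody and sequenced (ChIP-seq). There was 1 group with 2 samples, numbered as replicates 1 and 2, with no genotype or treatment named. The labels give the same donor and the same tissue sample for both, so differences between the replicates may be technical. No comparison between conditions and no test was possible, and all values below are descriptions. Expression was not measured, so neither the tissue nor the activity of any defensin gene could be checked against RNA.

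Alpha defensins, also called cryptdins in the mouse, are made by Paneth cells at the base of the small intestinal crypts, a cell type that is not a normal part of the stomach. Beta defensins are made by epithelia, and many of them are known from the epididymis and testis, where they coat sperm. CTCF binds a long motif with its array of zinc fingers, and cohesin stops at CTCF sites that point towards each other, so that CTCF sites often lie at the edges of chromatin domains.

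The optimal list, which the authors filtered by IDR (a measure of how reproducibly a peak ranks across replicates), held 74283 peaks on chromosomes, or 30.3 per Mb of autosome. The relaxed list, called on both replicates together, held 299926. Each peak has a signal, the authors' own value, which is not scaled between lists. It ran from 4.99 to 677 in the optimal list, with a median of 76.6. Read counts were not used here, so the depth behind a peak is unknown, and the control libraries are not analysed here.

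Taking members less than 200 kb apart as a run, the 64 genes fell into 5 runs. The runs lay on chromosome 1 (18236473 to 18265138, Defb18 and Defb41), chromosome 2 (152459055 to 152623053, 11 Defb genes from Defb23 to Defb25) and chromosome 14 (62977524 to 63058149, 5 Defb genes from Defb48 to Defb42). The other 2 lay on chromosome 8. Run 1 there (18974940 to 19497775) held 14 Defb genes from Defb40 to Defb7. Run 2 (20892669 to 21948850) held all 22 Defa genes and 10 Defb genes, from Defb33 to Defb13. No unsequenced base lay inside a run. The assembly is that of another substrain, and how many copies of these genes B6NCrl mice carry was not measured.

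A CTCF site that recurs through both chromosome 8 runs carries much of what follows, so its copies are printed first. In each sequence the capitals mark the 19 bases that matched a CTCF motif matrix built from the strongest optimal peaks, read 5′ to 3′ on the motif's strand, with 20 bases on either side (mm10). The consensus of that matrix was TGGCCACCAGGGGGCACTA. The copies about 3 kb downstream of Defa23, Defa31, Defa3 and Defa17 were identical over all 59 bases, and only the copy at Defa23 is shown. Among the motif matches inside the chromosome 8 runs and the motifs of their border peaks, 18 copies had up to 3 differing bases in the capitals. Of these, 6 had a peak in any list and 12 had none. Copies scoring under the motif threshold, or lying beside the runs without a peak, were not counted. The 6 with a peak and 3 of the 12 without are printed. Each is named by its nearest defensin gene, and the copies named by Defb genes lie 10747 to 40185 bp from the TSS. The signals of 39.2, 9.38 and 11.7 are of the relaxed list, and the others are of the optimal list. The peak of 39.2 is also in the conservative list.

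Copy at Defa23, chr8:21058068-21058126, minus strand, no peak: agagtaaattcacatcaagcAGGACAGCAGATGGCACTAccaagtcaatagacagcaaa
Copy at Defa25, chr8:21093282-21093340, minus strand, signal 39.2: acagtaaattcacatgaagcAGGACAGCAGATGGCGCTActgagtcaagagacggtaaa
Copy at Defa22, chr8:21155344-21155402, minus strand, signal 9.38: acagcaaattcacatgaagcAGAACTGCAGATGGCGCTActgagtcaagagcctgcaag
Copy at Defa20, chr8:21502384-21502442, minus strand, no peak: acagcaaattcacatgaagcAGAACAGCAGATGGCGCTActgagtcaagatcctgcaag
Copy at Defb5, chr8:19258298-19258356, plus strand, signal 11.7: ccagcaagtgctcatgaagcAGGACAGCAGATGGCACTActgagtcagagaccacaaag
Copy at Defb3, chr8:19311804-19311862, plus strand, signal 31.2: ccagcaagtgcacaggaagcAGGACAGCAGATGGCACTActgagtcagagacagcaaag
Copy at Defb8, chr8:19407392-19407450, minus strand, signal 75.0: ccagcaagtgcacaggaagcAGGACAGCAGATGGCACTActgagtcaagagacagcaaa
Copy upstream of Defb8, chr8:19464954-19465012, plus strand, no peak: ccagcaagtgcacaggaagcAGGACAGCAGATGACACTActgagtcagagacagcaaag
Copy at Defb7, chr8:19506231-19506289, plus strand, signal 33: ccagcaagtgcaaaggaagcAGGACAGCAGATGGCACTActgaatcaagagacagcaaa

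A smaller share of defensin genes than of all protein-coding genes had a CTCF peak near the start, none of the alpha defensins did, and all the beta defensins of chromosome 2 did. An optimal summit lay within 10 kb of a transcription start site (TSS) for 17 of the 64 members (26.6%), against 69.7% of all protein-coding genes. The count was 0 of 22 Defa genes and 17 of 42 Defb genes (40.5%). By run, the count was 11 of 11 on chromosome 2, 3 of 5 on chromosome 14 (Defb48, Defb30 and Defb42), 1 of 14 in chromosome 8 run 1 (Defb8), 2 of 32 in chromosome 8 run 2 (Defb50 and Defb13) and 0 of 2 on chromosome 1. Within 1 kb the count was 5 (7.81%), all on chromosome 2, against 42.3% of protein-coding genes. In the relaxed list 26 members had a summit within 10 kb (40.6%), 2 of them Defa genes, against 85.6%.

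The distance from a TSS to the nearest optimal summit had a median of 36690.0 bp over the 64 members and 2208 bp over all protein-coding genes. For the Defa genes it ran from 16780 bp (Defa21) to 369750 bp (Defa2), with a median of 178219.5 bp. For the Defb genes the median was 19234 bp, from 87 bp (Defb29) to 108665 bp (Defb33). The members just inside the 10 kb limit were Defb50 at 8319 bp, Defb13 at 8758 bp and Defb48 at 9233 bp, and those just outside were Defb7 at 11167 bp, Defb12 at 11859 bp and Defa21 at 16780 bp. GC content in the 1 kb around the TSS had a median of 54.7% over all protein-coding genes, 48.6% in the chromosome 2 run, 46.0% in the chromosome 14 run, 43.4% in chromosome 8 run 1 and 44.0% for the Defa genes. It was 46.8% for the Defb genes of chromosome 8 run 2 and 31.2% in the chromosome 1 run. Whether GC content has a part in the counts was not tested.

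**Figure D1:**
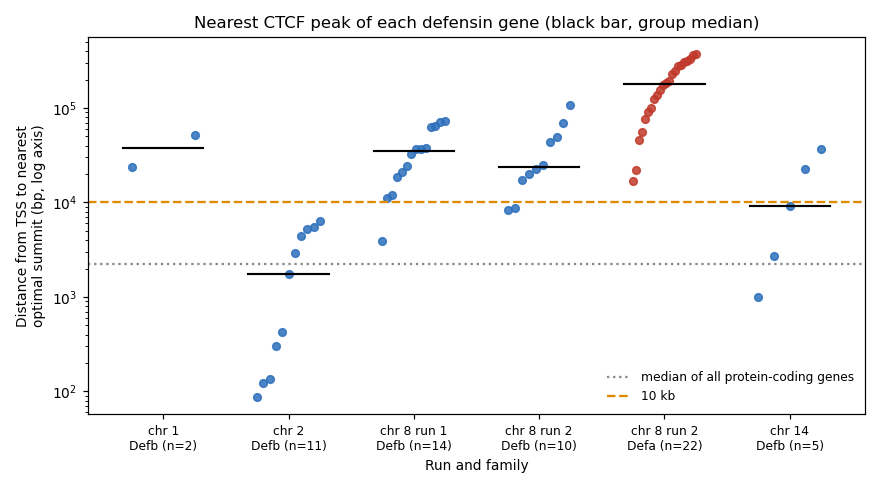
Distance from the TSS to the nearest optimal CTCF summit (bp, log axis) for each of the 64 defensin genes by run and family, with each group's median as a black bar. The 11 genes of chromosome 2 all lie under the dashed 10 kb line, and the 22 Defa genes all lie above it, from 16780 to 369750 bp.

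The run on chromosome 2 was the densest. It held 22 optimal peaks in 164 kb, or 134 per Mb, where chromosome 2 as a whole had 32.2 per Mb. Their signals ran from 18.7 to 426 with a median of 67.0, against 76.6 in the whole optimal list. The conservative list, another IDR list of the authors with 72171 peaks, held 20 in the same span. It is smaller than the optimal list but not wholly contained in it. Peaks without a motif match were 6 of the 22, where 63.4% of optimal peaks outside chromosome 1 had a match.

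In 5 of the 11 genes of this run the peak sat at the promoter, upstream of the TSS and within 1 kb of it. The peak 87 bp from Defb29 had a signal of 65.1, and 34.6 and 29.7 in the replicate 1 and 2 lists. At Defb28 the summit lay 124 bp from the TSS with a signal of 27.6 (17.1 and 9.45). Defb36 had a summit 135 bp away with a signal of 139 (75.7 and 64.7). The summit at Defb23 lay 304 bp away with a signal of 22.1 (15.5 and 6.40), and that at Defb21 lay 428 bp away with 93.7 (56.4 and 39.8). Every one of these was called in both replicates, and the signal was higher in replicate 1 at each. The Defb23 peak was not in the conservative list.

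No one sequence was common to all the promoter peaks, but the motifs at Defb21 and Defb23 were alike and differed only towards the 3′ end. Both of these matches lay in sequence marked as repeats (soft-masked) in the assembly, each with its 32-base word at 1 place. The matches at Defb28 and Defb36 were not soft-masked. The sites are shown because they lie closest to defensin starts, with the matched motif in capitals on its own strand. The Defb29 summit had no match, and the bases around the summit are given on the plus strand without capitals.

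Defb36 promoter, chr2:152604169-152604227, minus strand: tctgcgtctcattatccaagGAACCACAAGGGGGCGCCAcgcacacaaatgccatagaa
Defb28 promoter, chr2:152518141-152518199, plus strand: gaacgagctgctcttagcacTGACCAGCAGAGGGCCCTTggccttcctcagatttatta
Defb21 promoter, chr2:152572290-152572348, minus strand: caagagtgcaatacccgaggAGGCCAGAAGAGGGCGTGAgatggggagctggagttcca
Defb23 promoter, chr2:152464919-152464977, plus strand: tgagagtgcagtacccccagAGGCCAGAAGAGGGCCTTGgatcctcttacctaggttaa
Defb29 promoter, chr2:152540135-152540235, plus strand: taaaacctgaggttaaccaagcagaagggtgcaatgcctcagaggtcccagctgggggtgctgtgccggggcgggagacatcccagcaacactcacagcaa

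In 4 genes of the run a summit lay inside the gene itself. These were Defb22, the mouse counterpart of a beta defensin of the sperm surface (65.1, with 41.8 and 22.7 in replicates 1 and 2), Defb21 (24.0, with 15.8 and 7.29), Defb19 (53.1, with 31.3 and 19.4) and Defb36 (30.8, with 14.1 and 16.8). All 4 summits were intronic. The remaining genes had their nearest summit between genes, at 4426 bp for Defb20, 5274 bp for Defb45, 5486 bp for Defb25 and 6439 bp for Defb26.

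The strongest peak of the run, and of all peaks inside the 5 runs, lay 7315 bp from the TSS of Defb25, at the end of the run. Its signal was 426, at percentile 94.8 of the optimal list, with 225 and 204 in replicates 1 and 2. Other strong peaks lay 5892 bp from Defb20 (325, with 178 and 149.6), 14103 bp from Defb29 (316, with 175 and 141) and 4720 bp from Defb29 (271, with 157 and 112). The peak that bordered the run on the left was strong (258, with 147 and 113), and the one on the right was weak (24.0, with 16.7 and 4.96, not in the conservative list). The largest signals thus stood at the left edge, in the middle and at the right end of the run, with weaker peaks between them. The motifs of the strongest 2 inside peaks had scores of 21.1 and 20.9 and are shown for that.

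Peak near Defb25, chr2:152615693-152615751, plus strand: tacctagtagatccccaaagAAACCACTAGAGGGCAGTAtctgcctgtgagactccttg
Peak near Defb20, chr2:152471140-152471198, plus strand: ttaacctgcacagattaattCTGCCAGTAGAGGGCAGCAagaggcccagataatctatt

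**Figure D2:**
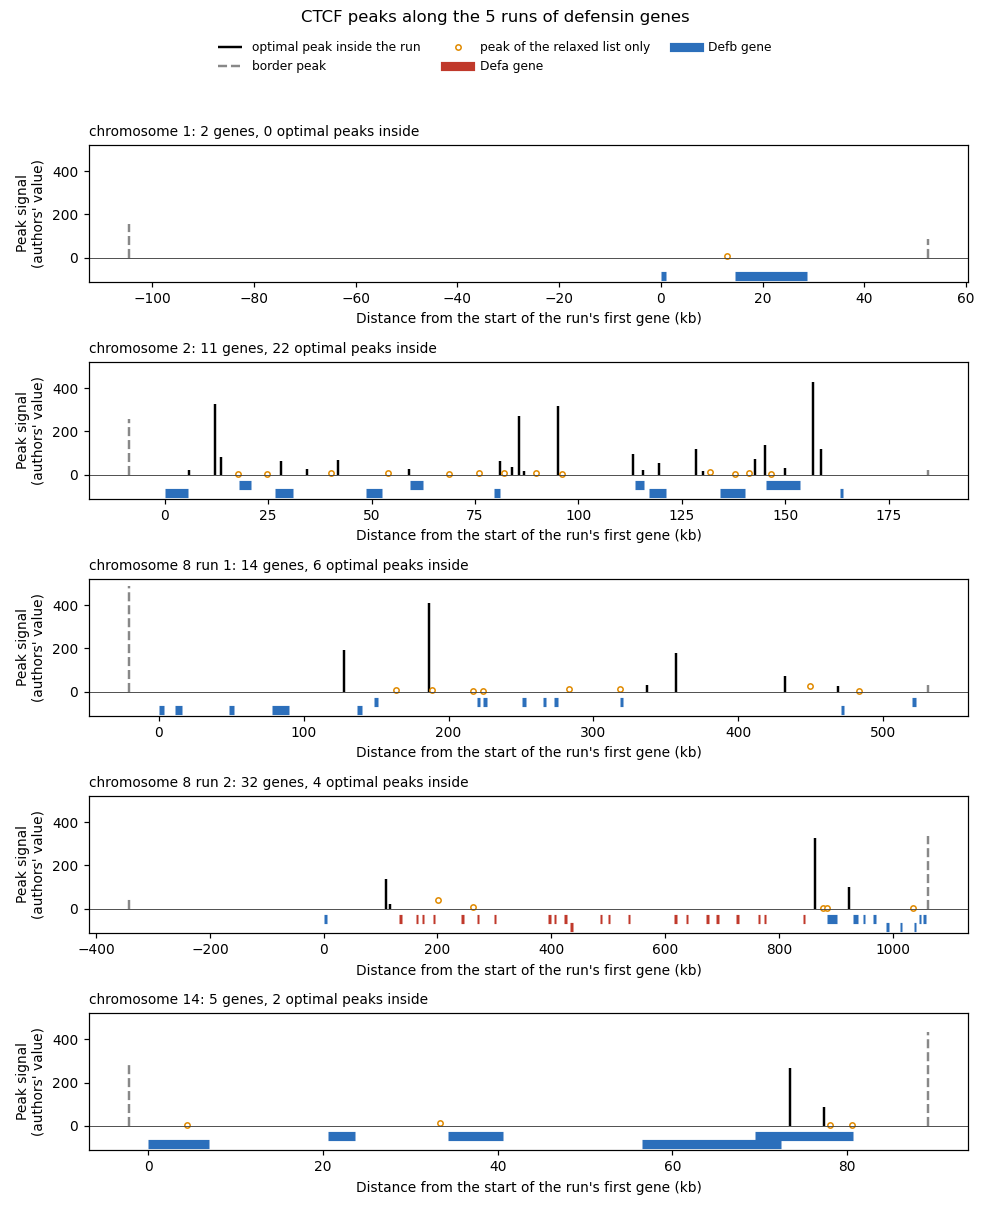
CTCF peaks along the 5 defensin runs, with the authors' peak signal against the distance in kb from the start of each run's first gene. Solid lines are optimal peaks inside the run, dashed lines are the border peaks, open circles are peaks of the relaxed list only, and bars under the axis are Defa and Defb genes (plus strand above, minus strand below, short genes widened to be visible). Chromosome 2 holds 22 of the 34 inside peaks, and the Defa genes of chromosome 8 run 2 lie in a stretch without any.

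On chromosome 14 the run was 80.6 kb long and held 2 optimal peaks, or 24.8 per Mb, near the chromosome's 23.5. Both lay in introns of Defb42, a beta defensin of the epididymis, whose record overlaps that of Defb30. The stronger one had a signal of 267, with 152 and 115 in replicates 1 and 2, and lay 1009 bp from a TSS of Defb30 and 2740 bp from one of Defb42. The weaker one had 87.8 (51.3 and 35.4) and no motif match. Strong peaks stood on both sides, 2247 bp beyond the left end of the run (279, with 162 and 117) and 8684 bp beyond the right end (431, with 222 and 210.3). The left border motif was on the minus strand, and the motifs of the stronger inside peak and the right border were on the plus strand. Defb47 and Defb43, in the 75.7 kb between the left border and the inside peaks, had no optimal summit within 10 kb. Defb43 had a relaxed summit of signal 15.5 at 861 bp, seen in both replicates (9.40 and 5.17).

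Inside peak, chr14:63050939-63050997, plus strand: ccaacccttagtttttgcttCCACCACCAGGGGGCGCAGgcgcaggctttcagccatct
Left border, chr14:62975252-62975310, minus strand: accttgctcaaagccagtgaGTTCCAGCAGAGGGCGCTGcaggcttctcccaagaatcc
Right border, chr14:63066804-63066862, plus strand: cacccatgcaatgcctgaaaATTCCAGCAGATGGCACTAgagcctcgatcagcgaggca

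On chromosome 1 the run of Defb18 and Defb41 spanned 28.7 kb and held no optimal peak. The nearest one stood 23923 bp upstream of Defb41, with a signal of 88.4 (47.8 and 37.3), and the left border lay 104599 bp away, in an intron of Crisp4, a gene of the epididymis, with 157 (94.3 and 63.1). The peak-free interval was 157 kb long, and 3.36% of the gaps between neighbouring autosomal summits were as long or longer. A relaxed summit of signal 6.64 inside the run was called in replicate 2 only. GC content in the 1 kb around the TSS was 31.2% for each gene, against the median of 54.7% over all protein-coding genes.

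Chromosome 8 run 1 held 6 optimal peaks in 523 kb, or 11.5 per Mb, where the chromosome had 32. The peaks stood between genes, and Defb8 alone had one within 10 kb, 3874 bp away with a signal of 24.8 (16.2 and 8.14). The 2 ends of the run differed. The left border, 20771 bp before Defb40 and 3194 bp from the TSS of Xkr5, had a signal of 488, at percentile 98.7 of the optimal list, with 272 and 217 in replicates 1 and 2. The right border, 8489 bp beyond Defb7, had 33 (17.9 and 14.8). Defb40, Defb37 and Defb38, the first genes after the strong border, had no peak of the relaxed list within 10 kb, and neither did Defb39 and Defb12 after them.

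The strongest peak inside this run (408, with 221 and 188) lay 3902 bp from the TSS of Spag11a, an epididymal gene of the beta defensin type that does not carry a Defb name. A further 2 strong peaks had signals of 191 (119 and 71.2), 11859 bp from Defb12, and 179 (102 and 78.5), 38686 bp from Defb3. Defb14, whose peptide is induced in skin and airway epithelium, had its nearest optimal summit 32569 bp upstream. Within 1 kb of a TSS, 71.2% of all protein-coding genes and 11 of the 64 members had a relaxed summit. The inducible genes Defb4 and Defb3 were among the 11, with summits at 98 bp (5.64, replicate 2 only with 3.70) and at 107 bp (10.8, with 7.52 and 3.27). The bases within 50 bp of either summit held no whole motif match, and a match scoring 12 was centred within 50 bp of the Defb3 summit and ran past that window. All the motifs of this run and its borders were on the plus strand except that of the peak 40177 bp from Defb8.

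Chromosome 8 run 2, the alpha defensin run, was the sparsest, with 4 optimal peaks in 1056 kb, or 3.79 per Mb. Of these, 2 stood before the first Defa gene and 2 after the last. The first lay 24211 bp from Defa21 with a signal of 136 (73.2 and 60.7), and the second 16780 bp from it with 24.5 (14.2 and 9.59). On the far side the first lay 20003 bp upstream of Defb1, a beta defensin of many epithelia, with 326 (179 and 150.3), and the second 8319 bp upstream of Defb50 with 102 (55.0 and 46.1) and no motif match. The right border, 6670 bp beyond Defb13, had 338 (185 and 153). The left border was far off, 342504 bp before Defb33, with 54.1 (32.9 and 21.6), and 100000 bases of that interval are unsequenced in the assembly. The left border motif and the 3 motifs inside the run were on the plus strand, and that of the right border was on the minus strand.

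Between the summits at 21008765 and 21756596 no optimal peak was called over 748 kb, and all 22 Defa genes lay in that stretch. Among 72495 gaps between neighbouring autosomal summits, 181 (0.250%) were as long or longer, and the median gap was 12.1 kb. The relaxed list had 2 summits there. One, 8858 bp from the TSS of Defa25, had a signal of 39.2, was seen in both replicates (19.8 and 18.0) and was in the conservative list, though not in the optimal list. Defa25 was thus the single Defa gene with a summit within 10 kb when the conservative list was used. The other, 6917 bp from Defa22, had 9.38 and was seen in replicate 1 only (5.74). Defa17 and Defa2, the first Defa names without an optimal summit, had the nearest optimal one 100816 and 369750 bp away.

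Left edge of the stretch, chr8:21008725-21008783, plus strand: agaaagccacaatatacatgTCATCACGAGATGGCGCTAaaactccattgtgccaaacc
Neighbouring peak, chr8:21001296-21001354, plus strand: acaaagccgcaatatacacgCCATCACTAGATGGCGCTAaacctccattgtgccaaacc
Right edge of the stretch, chr8:21756560-21756618, plus strand: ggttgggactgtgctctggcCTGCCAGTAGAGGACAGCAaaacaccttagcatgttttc

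The stretch held 82 matches to the CTCF motif, or 109.7 per Mb, against 101 per Mb over the autosomes. A match here is a 19-base sequence scoring at or above 11.13, the score that 1% of windows 1 kb away from summits reached, and it is not in itself a bound site. Counting only matches at 1 place in the genome, the stretch had 20.1 per Mb against 70.3, and at a stricter threshold of 15.68 it had 8.02 per Mb against 22.8. None of the 82 had an optimal summit within 50 bp, which allows a share of up to 3.66% for counting error only, and 2 had a relaxed summit. Over the autosomes 19.6% of 240917 matches had an optimal summit. The 6 matches that met the stricter threshold were the 4 identical copies, the copy at Defa25 and the copy at Defa20.

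Most of this stretch is repeated sequence in the assembly. Of the 32-base words there, 14.0% occurred once in the genome, 61.9% at 2 to 10 places and 24.1% at more than 10, whereas 84.6% of autosomal words occurred once. Within 10 kb of a Defa TSS the share found once ran from 4.04% (Defa28) to 38.8% (Defa24), with a median of 8.75%. Around the Defb genes it ran from 53.9% (Defb7) to 97.2% (Defb45), with a median of 88.7%, so the 2 families did not overlap. A read that lies wholly within sequence found at several places cannot be assigned to one of them, and the authors' treatment of such reads was not given in the sources used here. What part repeated sequence has in the missing peaks was not tested.

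**Figure D3:**
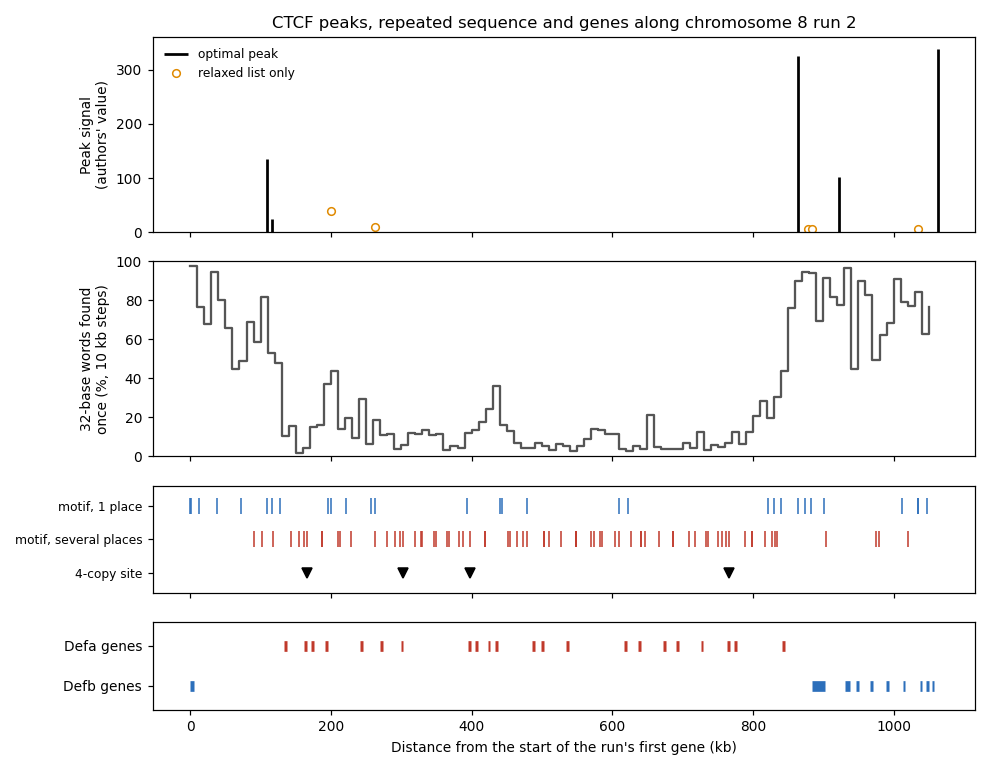
Chromosome 8 run 2 by distance in kb from the start of its first gene: the authors' signal of optimal peaks (lines) and relaxed-only peaks (circles), the percent of 32-base words found once in the genome in 10 kb steps, the CTCF motif matches at 1 or several places with the 4 identical copies as triangles, and the genes, short ones widened to be visible. The 22 Defa genes, the 4 copies and the low share of unique words fall in the same stretch, which has no optimal peak.

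The matches of all 5 runs were then split by whether the 32 bases around the motif occur once in the genome. Over the autosomes 26.5% of matches at 1 place and 3.41% of matches at several places had an optimal summit. In the defensin runs together it was 26 of 189 matches (13.8%, exact Clopper-Pearson 95% interval 9.19 to 19.5), and 24 of the 85 at 1 place (28.2%, interval 19 to 39.0). On chromosome 2 it was 16 of 25 matches at 1 place (64.0%, interval 42.5 to 82.0) and 0 of 9 at several. In chromosome 8 run 1 it was 4 of 21 (19%, interval 5.45 to 41.9) and 2 of 18. In chromosome 8 run 2 it was 3 of 30 (10%, interval 2.11 to 26.5) and 0 of 73, the latter allowing up to 4.11%. On chromosome 14, where 93.0% of words occur once, it was 1 of 8 (12.5%, interval 0.316 to 52.7) and 0 of 3, and on chromosome 1 it was 0 of 1 and 0 of 1. Matches within a run share duplicated sequence and are not independent, and the intervals cover counting error only. In the Defa stretch, 15 of the 82 matches were at 1 place. That 0 of these had an optimal summit largely follows from how the stretch was taken, so no limit is given.

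**Figure D4:**
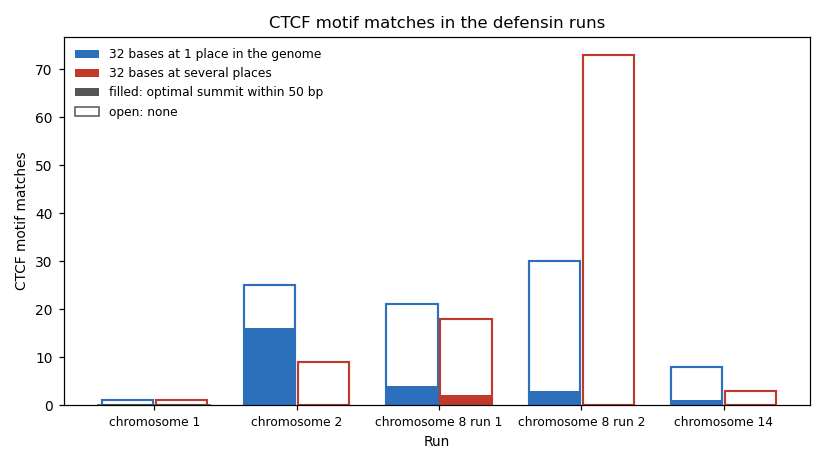
Number of CTCF motif matches in each defensin run, split by whether the surrounding 32 bases occur at 1 place or at several places in the genome. The filled part has an optimal summit within 50 bp. Chromosome 8 run 2 has 73 matches at several places, none with a summit, and chromosome 2 has 16 of 25 matches at 1 place with one.

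The recurring site printed above was then followed copy by copy. Its 19-base core AGGACAGCAGATGGCACTA was found at 8 positions in and next to the chromosome 8 runs, all with the motif score 18.5. The 4 Defa copies lay 3050 bp downstream of Defa23, 3017 bp of Defa31, 3053 bp of Defa3 and 3041 bp of Defa17, each with its 32-base word at 4 places, and none had a peak in any list. The 4 copies in and next to the beta defensin run, with words at 1 or 2 places, all had one. This was partly set in advance. The right border copy was included only because it is a peak, and the core was chosen because some copies had an optimal peak. The copy 40185 bp from Defb8 had an optimal signal of 75.0 (46.9 and 26.8), and the copy 18473 bp from Defb3 had 31.2 (22.2 and 8.46). The copy that forms the right border beyond Defb7 had 33 (17.9 and 14.8). The copy 10747 bp from Defb5 had 11.7 in the relaxed list only (7.61 and 4.14). The core is thus the same in copies with and without a peak. The flanks differ, at 10 of 59 bases between the Defa window and the copy at Defb8. Between that window and the copy at Defb5, 17 bases differ. The number of places of the word differs along with the flanks, so the parts of flank and repetition cannot be told apart here.

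Among the 18 copies with up to 3 differing bases, several scored lower. Substitutions are written with the core's base first and positions counted from 1 at the 5′ end of the motif. The copy at Defa25 differed by A16G, scored 18.2 with its word at 1 place, and had the signal of 39.2. The copy at Defa20, 6845 bp upstream of the gene, differed by G3A and A16G, scored 18.0 with its word at 1 place, and had no peak in any list. At Defa22 the copy differed by G3A, A6T and A16G, scored 14.8 and had the relaxed signal of 9.38. In the beta defensin run the copy 17377 bp upstream of Defb8 differed by G14A, scored 12.5 and had no peak. Of the 18 copies, 8 had their word at 1 place, and of these 1 had an optimal peak, 1 a peak of the conservative list, 2 a relaxed peak only and 4 none. Of the 6 with a word at 2 places, 2 had an optimal peak and 4 none, and the 4 with a word at 4 places had none.

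Peaks in different runs also shared sequence. Over the 59 bases around the motif, the 36 sites with an optimal peak made 630 pairs with a median of 39.0% identical bases, and 8 pairs reached 70%. The right border of chromosome 8 run 2 (338), beyond Defb13, matched the peak 11859 bp from Defb12 in run 1 (191) at 88.1%. The 2 peaks before Defa21 matched each other at 89.8% while their signals were 136 and 24.5. On chromosome 2, 3 pairs reached 70%, the closest at 81.4%, between the summit inside Defb19 (53.1) and the peak 5486 bp from Defb25 (119.9, with 61.3 and 58.4).

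Both replicates had a signal at all 44 peaks inside and bordering the runs, although their strengths differed most among weak peaks. The peaks were IDR-filtered, and the replicate lists are relaxed, with lowest signals of 3.17 and 2.58. A signal in both was thus largely set in advance. Replicate 1 was the higher at 41 of the 44, and the 2 lists are not scaled to each other. The exceptions were the peak 3213 bp from Defb22 (12 in replicate 1 and 18.8 in replicate 2), the intronic peak of Defb36 (14.1 and 16.8) and the peak 4426 bp from Defb20 (39.5 and 39.6). The ratio of replicate 1 to replicate 2 had a median of 1.30 and ran from 0.638 near Defb22 to 3.37 at the right border of chromosome 2.

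**Figure D5:**
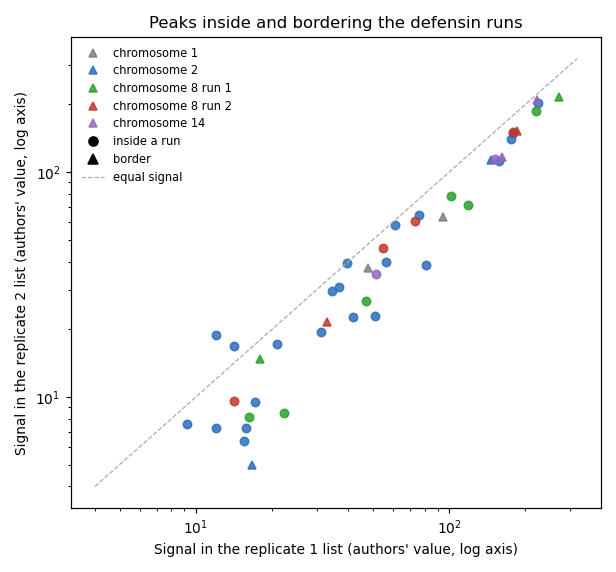
Signal of the 44 peaks inside (circles) and bordering (triangles) the defensin runs in the replicate 1 and replicate 2 lists, the authors' values on log axes, by run. Strong peaks follow a line somewhat under equality, and the peaks with replicate 1 signals under 25 scatter most.

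RefSeq promoter windows (GRCm38.p6, 250 bases before to 50 after the start) were found for 41 of the 64 members. A motif match lay in 3 of 42 windows (7.14%), near the 5.45% of 32851 windows in the genome, and the 12 Defa windows held none, too few to set apart from that share. Of the Defa promoters, 11 were 63.9 to 100% identical to one another, and that of Defa28 was 50.9 to 58.7% identical to them. Pairs of Defb promoters, many of them from different runs, ran from 41.0 to 87.8%.

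For comparison, genes that act with the defensins were taken as a list: antimicrobial proteins, the protease Mmp7 that activates alpha defensins, the receptor Ccr6 and its ligand Ccl20, and the factors Sox9 and Atoh1 of intestinal secretory cells. Of 22 in the annotation, 15 had an optimal summit within 10 kb (68.2%), beside 69.7% of all protein-coding genes. The strongest were at Pglyrp1, which binds bacterial peptidoglycan (440.5, with 255 and 187), at Reg4 (415, with 223 and 192) and at Sox9 (322, with 162 and 163). Mmp7 had one 2488 bp away with 17.5 (14.0 and 2.69). Atoh1 and Camp, the cathelicidin gene, had none within 10 kb, with the nearest at 19285 and 12989 bp.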

How the data were processed

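CTCF ChIP-seq peaks of 2 stomach samples of 1 group were analysed from 5 lists in mm10 coordinates, as deposited: optimal, conservative, relaxed on both replicates together, and relaxed for each replicate. Per the labels and the descriptions deposited with the samples, peaks were derived from alignments and a control alignment. Names and versions of aligner and peak caller, and the IDR cutoff, were not given in the sources used here. Each peak's signal, as deposited, is the authors' value and only described or ranked peaks within a list. The deposited −log10 of a q-value ran from 0.270 to 5.12 in the optimal list, and the deposited score from 537 to 1000. The summit offset from the peak start, in bp, was used as deposited.

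Genes were those of GENCODE release M21 and sequence came from GRCm38.p6, the same assembly. A gene's TSS were the starts of its protein-coding transcripts, and a border was the first optimal summit outside a run. Peaks of 2 lists were matched within 100 bp. The motif matrix of 19 positions was trained on 992 aligned windows out of the 1000 chromosome 1 peaks of highest signal, and 63.4% of optimal peaks elsewhere had a whole match within 50 bp of the summit. Shares of matches with a summit used the match centre. Thresholds came from 65558 windows 1 kb away. Uniqueness was the number of places at which a 32-base word occurs on the assembled chromosomes, either strand, read at every base of the runs and every 1 kb of the autosomes. A peak was of the relaxed list only when over 300 bp from an optimal summit. Shares carry exact Clopper-Pearson 95% intervals, and where a limit is given for a share of 0, it is that of 3 counts. Scripts ran in Python 3.11.15 (scipy 1.17.1, numpy 2.4.6, numba 0.67.0, pandas 2.3.3). The motif scan, the word counts and the distance counts were tested on simulated data.

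The members and lists were chosen with earlier results of these data known. Named genes were those with an optimal summit within 10 kb or inside them, up to 2 per run without one in alphabetical order, the ends of each run, and the genes nearest to each peak. Genes named beside relaxed peaks, recurring sites or the extremes of a range were chosen after their values were seen. The alternatives for the counts were other distances, lists, signals, run gaps and motif thresholds, and each replicate alone.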

Additional observations from a re-analysis of the deposited data

How the results depend on the processing

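The count of 17 members with an optimal summit within 10 kb was 5 within 1 kb and 38 within 50 kb, where the shares of all protein-coding genes were 42.3% and 87.8%. It stayed between 13 and 18 under the other lists, TSS definitions and records tried. The share of all protein-coding genes, not taken for the pseudogene records, ran there from 50.3% to 72.3%. The 18 of the conservative list were the 17 and Defa25, and the stronger part of the optimal list lost Defb22, Defb26, Defb28 and Defb8. The 26 members with a relaxed summit within 10 kb were 11 within 1 kb, where the shares of all protein-coding genes were 85.6% and 71.2%. The 34 optimal peaks inside runs were 17 in the stronger part of the list. The share of motif matches with an optimal summit, 13.8%, was 42.9% at the stricter threshold (autosomes 48.3%) and 28.2% for matches at 1 place (autosomes 26.5%), an alternative chosen after seeing the data under which the share lies above that of the autosomes and not below it. With each replicate alone (its 74283 strongest peaks, or its whole relaxed list for the relaxed count), the 3 counts ran from 17 to 18, from 28 to 31 and from 30 to 33. For the first and second of these, the shares of all protein-coding genes were 69.0% to 70.4% and 86.5% to 87.7%. Both replicates alone gained Defa25, and replicate 2 alone lost Defb8. Shorter distances, fewer peaks and fewer matches follow from how these alternatives are built. No paired analysis was possible because no result comes from a test. Depth is unknown, the replicates share 1 tissue sample, expression and read alignments were not used, and a peak missing from repeated sequence is not shown to be absent there.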

Other observations

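The annotation also holds 18 Defa and Defb pseudogene records. Of these, 1 had an optimal summit within 10 kb, at 7421 bp, and the median distance was 68662 bp, up to 333821 bp. Most of the records lie in the Defa stretch without an optimal peak, and the share over all pseudogenes was not counted.

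The relaxed list had 31 summits inside the runs that were not in the optimal list. Both replicates called 6 of them, and 2 were in the conservative list. A whole motif match lay within 50 bp of 8 summits, and 10 summits lay within 50 bp of the centre of a match. The 2 in the conservative list were the copy at Defa25 described above and a peak 23042 bp from Defb8. The latter had a signal of 25.3 (14.1 and 11.3 in replicates 1 and 2).

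Other motif cores recurred without an optimal peak, beside 3.41% of autosomal matches at several places that had one. The core GACTCACTAGAGGGCACAG, with a score of 12.3, was found at 20 sites in the chromosome 8 runs, with words at 1 to 1334 places in the genome. The core TGACCATCAGGTGGCATGG, with 12.6, was found at 11 sites near Defa genes, with words at 2 to 5 places.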
